A study of Mus musculus with 16 samples.

Results

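The H3K27ac landscape of mouse clear cell sarcoma (mCCS) was described from its 1 deposited peak list. All of its 27552 peaks were taken, out of 58592 peaks in the 3 lists of the series (20375 for RNAPOL2 and 10665 for V5). CCS is a soft tissue cancer defined by the EWSR1::ATF1 (EA1) fusion. The labels give 4 H3K27ac samples among 16, with 4 each for V5, RNAPOL2 and input chromatin, and every sample is labelled as tumor tissue with the genotype EWSR1::ATF1. Per the methods of the study, the tumors formed in mice of a 129/SvJ and C57Bl/6 background after TATCre protein was injected into a hindlimb at 4 weeks of age. Cre removed a stop cassette, so that V5-tagged EA1 was expressed from the Rosa26 promoter. No tissue without the fusion was part of the lists used here, so the landscape has no comparison tissue, and the tumors were bulk material in which infiltrating cells remain. With 1 list and no values per tumor, there is no replicate error. Intervals given with shares are 95% Wilson intervals, which cover the counting of peaks or genes only, and neighbouring peaks are not independent.

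H3K27ac is the acetylation of lysine 27 on histone H3. The mark is written mainly by the acetyltransferases p300 and CBP, removed by histone deacetylases, and read by bromodomain proteins. It lies on the nucleosomes that flank the starts of active genes and on active enhancers, which are DNA elements that raise transcription of a gene from a distance. Wide stretches of the mark are typical of genes that define a cell's identity.

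The sequences below show the range of DNA that lay under the peaks. The first set comes from RefSeq promoters (GRCm38.p6), each 300 bases long and written 5′ to 3′ on the strand of its gene, with every CG dinucleotide in capitals. Pnrc1, a nuclear receptor coactivator gene, had the highest-scored peak of the list, and its promoter at chr4:33248738-33249037 (minus strand) held 8 CG dinucleotides at 48.0% GC. Ep300, which encodes p300, was next by score, and its promoter at chr15:81585964-81586263 (plus strand) held 30 at 72.3% GC. Nfil3, a bZIP repressor gene with one of the widest promoter peaks, had 54 at 81.7% GC at chr13:52980990-52981289 (minus strand).
Pnrc1: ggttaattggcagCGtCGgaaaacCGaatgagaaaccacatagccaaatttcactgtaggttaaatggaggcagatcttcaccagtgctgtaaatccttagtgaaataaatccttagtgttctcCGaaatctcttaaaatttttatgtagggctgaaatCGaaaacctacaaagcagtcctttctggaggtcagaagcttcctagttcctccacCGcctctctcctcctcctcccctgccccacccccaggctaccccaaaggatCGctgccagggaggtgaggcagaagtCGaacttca
Ep300: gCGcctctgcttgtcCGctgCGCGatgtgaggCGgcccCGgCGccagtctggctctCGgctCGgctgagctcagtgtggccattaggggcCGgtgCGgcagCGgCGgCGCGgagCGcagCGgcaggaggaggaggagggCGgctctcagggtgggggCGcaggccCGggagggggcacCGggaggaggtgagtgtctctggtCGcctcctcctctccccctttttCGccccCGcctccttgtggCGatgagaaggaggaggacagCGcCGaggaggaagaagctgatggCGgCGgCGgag
Nfil3: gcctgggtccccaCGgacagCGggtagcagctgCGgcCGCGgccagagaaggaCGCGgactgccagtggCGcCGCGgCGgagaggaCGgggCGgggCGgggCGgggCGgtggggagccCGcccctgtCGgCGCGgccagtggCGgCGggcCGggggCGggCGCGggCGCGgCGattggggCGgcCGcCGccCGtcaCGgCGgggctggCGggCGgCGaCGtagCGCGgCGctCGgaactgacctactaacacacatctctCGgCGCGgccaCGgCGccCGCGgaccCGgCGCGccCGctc

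The second set shows the motifs of the transcription factor families to which EA1 belongs or with which ATF proteins are related. The canonical ATF/CREB motif is TGACGTCA and the AP1 motif of Fos and Jun proteins is TGAGTCA. Both are in capitals, read on either strand. Cdc42, a small GTPase gene, had one of the highest-scored coding promoters with TGACGTCA in its RefSeq stretch (chr4:137357710-137358009, minus strand, peak score 8645). The highest-scored distal peak with TGACGTCA in its central 500 bp lay inside Elp3, a subunit gene of the Elongator complex, and the stretch shown is chr14:65544235-65544354 (plus strand, score 2048). The highest-scored distal peak with TGAGTCA and no TGACGTCA in the same window was intergenic, 15657 bp from the nearest coding start at Zfp239, and the stretch shown is chr6:117879822-117879941 (plus strand, score 3025).
Cdc42 promoter: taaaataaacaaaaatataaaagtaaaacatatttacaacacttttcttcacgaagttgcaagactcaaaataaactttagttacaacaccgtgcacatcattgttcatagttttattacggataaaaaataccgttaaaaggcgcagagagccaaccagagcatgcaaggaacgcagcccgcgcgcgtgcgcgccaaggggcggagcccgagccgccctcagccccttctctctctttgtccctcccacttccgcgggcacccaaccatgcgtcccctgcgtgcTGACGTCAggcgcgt
Elp3 intragenic peak: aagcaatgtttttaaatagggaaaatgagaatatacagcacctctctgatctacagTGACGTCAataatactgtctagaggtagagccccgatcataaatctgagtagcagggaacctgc
Zfp239 intergenic peak: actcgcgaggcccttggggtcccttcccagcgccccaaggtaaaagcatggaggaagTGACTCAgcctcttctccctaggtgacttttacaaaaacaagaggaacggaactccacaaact

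The peaks covered 47.9 Mb, or 1.81% of the chromosomes outside assembly gaps. The median width was 1350 bp (quartiles 870 and 2040), from 500 bp, reached by 262 peaks, to 39960 bp. The median score was 212 (quartiles 84 and 732), from 21 to 12513. The score is a whole number whose scale is not stated, and 885 peaks shared the most common value, 57. Wider peaks had higher scores across the 27552 peaks (Spearman correlation 0.68, a description over peaks of 1 list, and 0.30 in the upper 50% of peaks by score). Wide peaks held more of the covered DNA than their share of peaks. The widest 10% of peaks held 29.4% of the covered bases, and the 133 peaks of at least 10000 bp (0.483% of peaks) held 3.95%.

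Most peaks lay at gene starts. A peak within 3 kb of any GENCODE transcription start site (TSS) was called a promoter peak, and this held for 16276 peaks (59.1%, interval 58.5 to 59.7%). On a coding TSS itself lay 12076 peaks (43.8%). A further 933 peaks lay on the TSS of a noncoding gene, and 3267 (11.9%) lay within 3 kb of a TSS without touching one. Of the 11276 distal peaks, 6827 (60.5%, interval 59.6 to 61.4%) overlapped a gene. Of the distal peaks centred in a coding gene, 46.7% were centred in the first intron of any coding-gene transcript. The shares of the genome in genes and in first introns were not computed, so neither value can be read as an enrichment. The intergenic peaks numbered 4449.

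**Figure D1:**
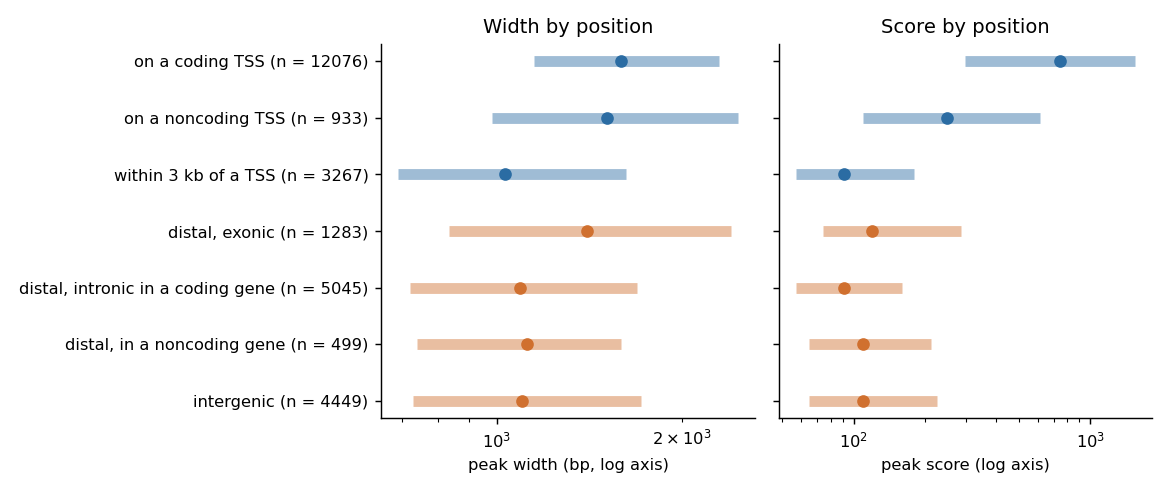
Width in bp and score of H3K27ac peaks by position, with both horizontal axes on a log scale, where points are medians and bars span the quartiles. Peaks on a coding TSS had a median score of 747, while peaks near but off a TSS (median 91) sat with the distal classes (91 to 120).

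Median scores were high for peaks that covered a coding TSS and low for peaks off one, with little change by distance among the latter. Peaks that covered a coding TSS had a median score of 747 (quartiles 297 and 1554). Peaks whose edge lay within 1 kb of a coding TSS without covering it had a median of 82, and the medians then stayed between 91 and 110 out to peaks more than 300 kb away. Those within 1 kb had a median width of 880 bp, against 1590 bp on a coding TSS. A wide peak near a start is more likely to cover it, and wide peaks scored higher, so these classes sort peaks partly by width. The part of this sorting in the drop was not tested. Of all peaks, 65.1% lay within 10 kb and 94.2% within 100 kb of a coding TSS, those on a TSS included. The share of the genome within these distances was not computed, so these values cannot be read as enrichments. Only 65 peaks were more than 500 kb from one, the farthest at 1762896 bp from Flrt2, a gene for a fibronectin-leucine-rich transmembrane protein. That remote peak lay on a noncoding TSS and had a score of 215.

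Around coding gene starts, coverage was asymmetric. It was highest 250 bp downstream of the start, where 51.5% of the 21938 coding genes were covered. Among 8429 peaks that held 1 coding gene start each, the median reach was 523 bp upstream and 991 bp downstream, and 85.5% reached farther downstream. The 1171 peaks over coding TSSs of both strands had a higher median score (1122) than coding TSS peaks as a whole and a median width of 1800 bp.

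**Figure D2:**
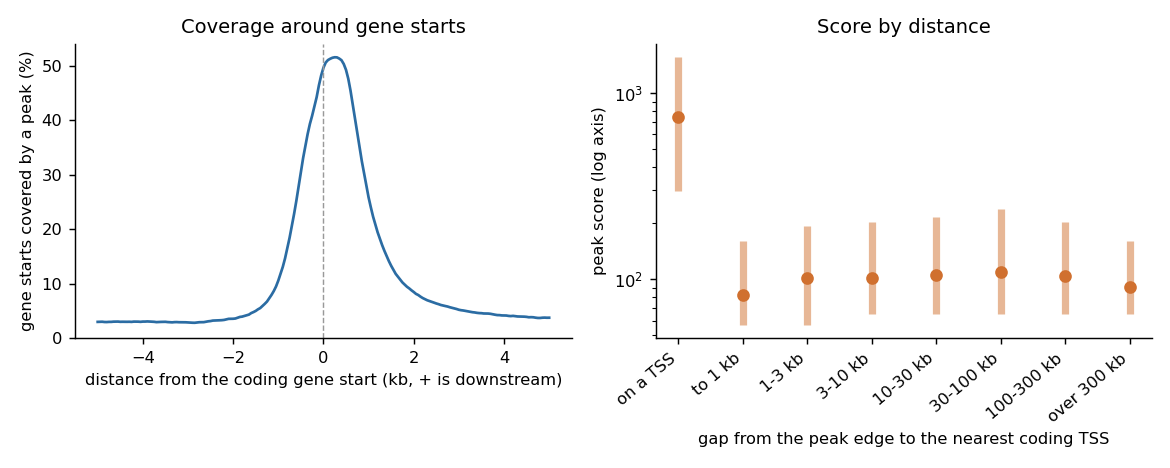
Left, share of coding gene starts covered by an H3K27ac peak at each offset in kb, highest at 51.5%. Right, peak score on a log axis by the gap to the nearest coding TSS, with medians as points and quartiles as bars, which drops from 747 on a TSS to 82 in the next bin and stays near 100.

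Promoter and distal peaks differed in score, and their order in width depended on the score. Promoter peaks had a median score of 490 against 101 for distal peaks, and a median width of 1490 bp against 1120 bp. When the peaks were divided by score into 10 groups of equal size (deciles), the promoter share rose with every decile, from 30.5% in the lowest to 97.9% in the highest. At like scores the width order was the opposite from the second decile upwards. In the ninth decile, 189 distal peaks had a median width of 3990 bp, whereas 2566 promoter peaks had 1840 bp. Among all peaks that scored over 212, the medians were 2340 bp for 2629 distal peaks and 1750 bp for 11146 promoter peaks. A distal peak of high score was therefore usually a wide one, while promoter peaks reached the same scores over less DNA.

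**Figure D3:**
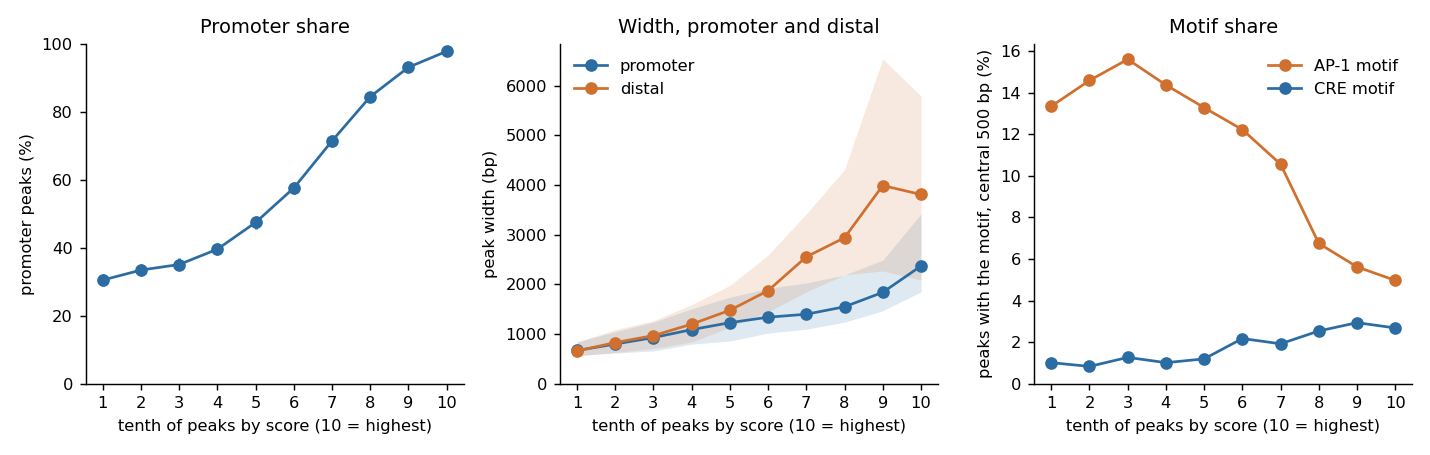
H3K27ac peaks in deciles by score. Left, promoter share with Wilson intervals, rising from 30.5 to 97.9%. Middle, median width in bp of promoter and distal peaks with quartiles shaded, with distal peaks wider in the upper deciles (3990 against 1840 bp in the ninth). Right, share with each motif in the central 500 bp, where AP1 fell to 4.97% and CRE rose to 2.69% in the highest decile.

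The DNA under the peaks was richer in GC and CpG than the genome. The median GC content was 52.3% against 41.4% in 500-bp tiles of the genome, and the median ratio of observed to expected CpG was 0.334 against 0.154. Repeats masked in the reference made up a median of 10.8% of a peak against 25.2% of a tile. The CpG ratio was 0.589 for promoter peaks and 0.226 for distal peaks. Among peaks on a coding TSS, the 7392 with a CpG ratio of at least 0.6 had a median width of 1520 bp and a median score of 914. The 1225 with a ratio under 0.3 were wider (1980 bp) but lower in score (215), and 12.4% of them reached 5 kb against 1.04%. The ratio was taken over the whole peak, so a wide peak counts more DNA around the start, and ratio and width are not independent. How much of the width difference this makes was not tested, and the CpG ratio at the TSS itself was not measured. Among these 1225 peaks, the highest-scored lay on Gypc (12.77 kb, score 4627), a red cell glycophorin gene, and on Numa1 (6.81 kb, 4430), a spindle protein gene. Gpr153 (9.85 kb, 4224) and Ampd3 (17.92 kb, 4142), an AMP deaminase gene, followed. These genes were chosen after their values were seen.

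The raw shares of the ATF/CREB and AP1 motifs ran opposite ways between promoter and distal peaks, but their ratios to the backgrounds did not. TGACGTCA was present in the central 500 bp of 485 peaks (1.76%, interval 1.61 to 1.92%), 2.19% of promoter and 1.14% of distal peaks, against 0.268% of all genome tiles and 1.78% of 500-bp windows at all TSSs. TGAGTCA was present in 3068 peaks (11.1%, interval 10.8 to 11.5%), 16.7% of distal and 7.30% of promoter peaks, against 7.67% of tiles and 6.87% of TSS windows. Distal peaks over tiles gave ratios of 4.27 for TGACGTCA and 2.17 for TGAGTCA. Promoter peaks over TSS windows gave 1.23 and 1.06. With rising score the AP1 share went from 13.4% in the lowest decile over 15.6% in the third to 4.97% in the highest, while the share with TGACGTCA, the cAMP response element (CRE), went from 1.02% in the lowest to 2.94% in the ninth and 2.69% in the highest. The Cdc42 promoter and the Zfp239 intergenic stretch printed above are examples of each.

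Motifs were also counted in windows of 500 bp centred on coding TSSs, so that covered and uncovered starts were searched over the same length. TGACGTCA stood in 3.76% of 42889 TSS positions under a peak and in 0.803% of 50570 that were not. The ETS factor motif CCGGAAGT (9.92% against 1.04%) and the SP and KLF box GGGGCGGGG (26.1% against 4.97%) were likewise more frequent under peaks. TGAGTCA (4.79% against 8.08%), the TEAD motif ACATTCCA (0.865% against 2.28%) and the SOX motif AACAATGG (0.737% against 1.82%) were less frequent there. The MITF M-box form TCATGTGA stood in 0.933% of covered and 1.84% of uncovered TSS windows, and in 2.12% of distal peaks against 2.51% of tiles. The E-box form TCACGTGA, read by MITF, TFE3 and TFEB, went the other way, with 2.21% of covered and 0.423% of uncovered TSS windows, and 0.435% of distal peaks against 0.258% of tiles. Motifs with a CG are more frequent in CpG-rich DNA, which differed between these sets, and its part in the shares was not tested. A match is a run of letters and not a measured binding site.

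Promoter peaks marked 12846 of 21938 coding genes (58.6%, interval 57.9 to 59.2%). Their median highest promoter score was 863 (quartiles 372 and 1675). Conversely, 8442 genes (38.5%) had no peak in the gene body widened by 3 kb, 8162 had exactly 1, and 868 (3.96%) had at least 5 (130 with only the upper 50% of peaks by score). A distal peak without a promoter peak was rare, in 315 genes (1.44%). Noncoding genes were marked less often. Among those away from coding TSSs, a promoter peak was present for 12.2% of 5285 lincRNAs, 8.90% of 1629 miRNA genes and 3.10% of 9432 processed pseudogenes.

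Gene families named alike fell at both ends of this range. Among 74 symbol stems with at least 25 coding genes, 4 had a promoter peak on every member: the mitochondrial ribosomal Mrpl (49 genes) and Mrps (29), the RNA polymerase subunits Polr (28) and the vacuolar sorting Vps genes (35). Histone genes (Hist) had one on 66 of 67. At the other end, 0 of 57 keratin-associated Krtap, 0 of 42 beta-defensin Defb and 0 of 26 kallikrein Klk genes had one, and olfactory receptors had one on 3 of 1135. These stems were tabulated after other results had been seen.

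The 10 highest-scored peaks all lay on a TSS, 9 of them on that of a coding gene. After Pnrc1 (score 12513, 3.11 kb) came Ep300 (9969, 3.28 kb). Klf7, a zinc finger factor gene, followed with 9751 over 5000 bp. A peak of 15.95 kb over both Rhof, a small GTPase gene, and Setd1b, a histone H3 lysine 4 methyltransferase gene, had 9704. The fifth (9619) lay on the noncoding gene 1810026B05Rik, 13261 bp from the nearest coding start at Chd2, a chromatin remodeller gene. Hnrnpa0 (9479) and Hnrnpl (9176) encode RNA-binding proteins, Sp3 (9223) a GC-box factor, Kmt5b (9176) a histone H4 methyltransferase and Bicral (9107) a chromatin remodelling subunit.

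The 10 widest peaks were a different set, with score ranks from 61 to 3362. The widest, 39.96 kb with a score of 2813, ran along the inside of Auh, an enoyl-CoA hydratase gene on chromosome 13, and the peak on the Auh TSS beside it was the sixth widest (23.04 kb, 2604). Rapgef4, an exchange factor gene for Rap GTPases activated by cAMP, had a peak of 38.11 kb over its TSS (1486). A 26.62-kb peak with a score of 5121 lay over the noncoding Lncppara, 44693 bp from the coding start of Ppara, which encodes a lipid-sensing nuclear receptor. Slc23a2, a vitamin C transporter gene (25.43 kb, 4409), Sulf2, a heparan sulfate sulfatase gene (24.95 kb, 6505), and Nedd9, an adhesion scaffold gene (22.07 kb, 2067), followed. The others were a peak inside Zmiz1, a transcriptional coregulator gene, over a noncoding TSS (21.80 kb, 2231), the adhesion receptor gene Adgrd1 (21.78 kb, 3181) and Ralgds, a Ral activator gene (21.71 kb, 1976).

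The Auh peaks neighboured Nfil3. The Nfil3 promoter peak was 16.55 kb wide with a score of 5958, the 84th highest of the list, and a 13.34-kb intergenic peak (score 1234) lay 104428 bp from the nearest coding start, that of Nfil3. Crem, an ATF/CREB family gene on chromosome 18, had 2 peaks on separate TSSs of its own. The one of 5.28 kb scored 6415 and held no TGACGTCA, and the one of 7.51 kb scored 2139 and held it. The Rosa26 locus, from which the fusion was expressed, had 1 peak at chr6:113075021-113079990. It was 4.97 kb wide with a score of 3616, the 556th highest, and it also covered a TSS of Setd5, so that the signal of either gene cannot be told apart.

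The genes with the most peaks were mostly long, with a Spearman correlation of 0.35 between peak count and gene length over 21938 genes. Gm20388 headed the count with 165 peaks, but this gene record spans 4435 kb and encloses 71 other coding genes. The Fgfr2 record (57 peaks) spans 2961 kb with 29 other coding genes inside, so that both counts belong to many genes. Pde4d, a cAMP phosphodiesterase gene of 1504 kb with no other coding gene inside, had 58 peaks, 39 of them distal. Rab3c, a secretory GTPase gene that follows Pde4d on chromosome 13, had 25 peaks in 227 kb. Among the others of the 10 highest counts were Tshz2 (38), a zinc finger gene, Zmiz1 (30), Fyn (27), a Src family kinase gene, Ttc28 (26) and the recombination gene Rad51b (26). Per 100 kb, among 199 genes with at least 10 peaks, the densest were Mapkapk2 (21.9), a stress kinase gene, Actn4 (21.3), an actinin gene, Zbtb38 (19.7) and Ergic1 (18.7), a ranking added after the counts were seen.

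Gene lists were next read against the background of 58.6% of coding genes with a promoter peak and a median score of 863. A listed gene may share its peak with a neighbour, and where the peak of a gene printed here covered the TSS of another coding gene, that gene is named. All 17 genes of the ATF/CREB list, which counts the 3 Crtc coactivators in, had a promoter peak, with a median score of 2355 (2769 over the 14 without the coactivators). The highest were Atf4 (7373), a stress response factor gene, Crem (6415), Nfil3 (5958) and Creb1 (5591), and Atf1, the partner of the fusion, had 4451. Of 12 Fos, Jun and Maf genes 11 had one (median 2305), among them Fosl2 (5785), Jund (4721), Jun (2832) and Mafg (2691). Fosl1 had a peak within the widened gene but none at its promoter.

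Every gene on the chosen lists of acetylation enzymes and readers had a promoter peak, though these lists do not hold every gene of their classes. All 9 acetyltransferase genes had a promoter peak (median score 3181), led by Ep300 (9969), Crebbp (5591), which encodes CBP, Kat7 (3533) and Kat6a (3437). All 13 deacetylase and corepressor genes had one (median 1520, or 983 over peaks on a TSS of the gene itself, since the highest peak near Hdac1 covered only the TSS of Marcksl1), with Ncor1 (3344, shared with Pigl), Hdac5 (3279), Hdac7 (3161) and Hdac4 (2698) highest. All 12 reader, Mediator and elongation genes had one (median 1643.5), with Brd2 (8376, shared with H2-DMa), Med13l (4451) and Cdk9 (3259) among the highest. The lowest deacetylases were the X-linked Hdac6 (140) and Hdac8 (160).

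Melanocyte genes, which human CCS is known to express, were mostly without a peak. Of 20 genes, 6 had a promoter peak and 12 had no peak at all, among them Tyr, Tyrp1, Dct and Mlana, which encode melanin enzymes and a melanosome antigen, and Sox10, Pax3 and Kit. Pmel, a melanosome fibril gene, had the highest score (822), on a peak that also covered the TSS of Cdk2. Mitf, the regulator of the pigment lineage, had 372 with 4 distal peaks besides. Rab27a, which serves melanosome transport, had 215, and the peak near Mc1r, the melanocortin receptor gene, had 134 and did not cover its TSS. The list of neural crest and mesenchymal factors had 18 of 22 marked and a median of 1158.5, but its members were uneven. Among factors known from the neural crest, Zeb2 (1520), Sox9 (1508), Twist1 (1169), Snai1 (1148) and Msx1 (992) were above the coding median, while Snai2 scored 171 and Foxd3 had no peak. Of those placed with the melanocyte genes, Tfap2a scored 91 and Sox10 and Pax3 had no peak. These members were chosen after their values were seen. Tcf4 (3656), Prrx1 (3200), Runx1 (2913) and Tbx15 (2851) were highest, with promoter peaks of 5500, 10540, 6850 and 18400 bp.

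Markers of other cells that a tumor can hold were read against the same 58.6%, and peaks that covered a TSS of the gene itself were counted besides, which 55.3% of coding genes had. Macrophage genes had a promoter peak in 14 of 16 (median 403) and one on their own TSS in 9, with Cd68 (1554, shared with Mpdu1), Laptm5 (588), Spi1 (588) and Cd14 (518) highest. The C1qa and C1qc starts shared 1 peak of 13130 bp with a score of 472. Fibroblast and matrix genes had one in 13 of 15 (median 359), on their own TSS in all 13, with Sparc (2717), Col1a2 (1242), Col5a1 (1152) and Col1a1 (1024, 18370 bp wide) highest. In endothelial genes it was 9 of 13, and 6 on their own TSS, shares near those of all coding genes, with a median score of 129. Pecam1 (346, not on its own TSS), Erg (297), Kdr (266) and Egfl7 (226, shared with Gm20532) were highest. In bulk tumor, fewer cells of a type and less signal per cell cannot be told apart, and the part of these cells in other peaks was not tested.

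Several other lineages had few marked promoters. Skeletal muscle, the tissue at the injection site, had 3 of 21 promoters marked, with 16 genes free of any peak, Myod1, Myog, Ckm and Ttn included. Its highest peak, at Mylpf (2305), also covered the TSS of Tbc1d10b, and that at Actn3 (573) covered only the TSS of Zdhhc24. Lymphocyte genes had 4 of 12 (Lck highest, 297), and Schwann cell and glial genes 4 of 11 (median 291.5). Epithelial genes had 5 of 10, again near the share of all coding genes, with 1 on its own TSS and no score over 140. The counts were, for neuronal genes, 2 of 8 (Tubb3 highest, 616) and, for hepatocyte genes, 0 of 8. Of 15 genes that the study singles out 13 had a promoter peak, and since they were chosen in part from these samples their count is no independent evidence.

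**Figure D4:**
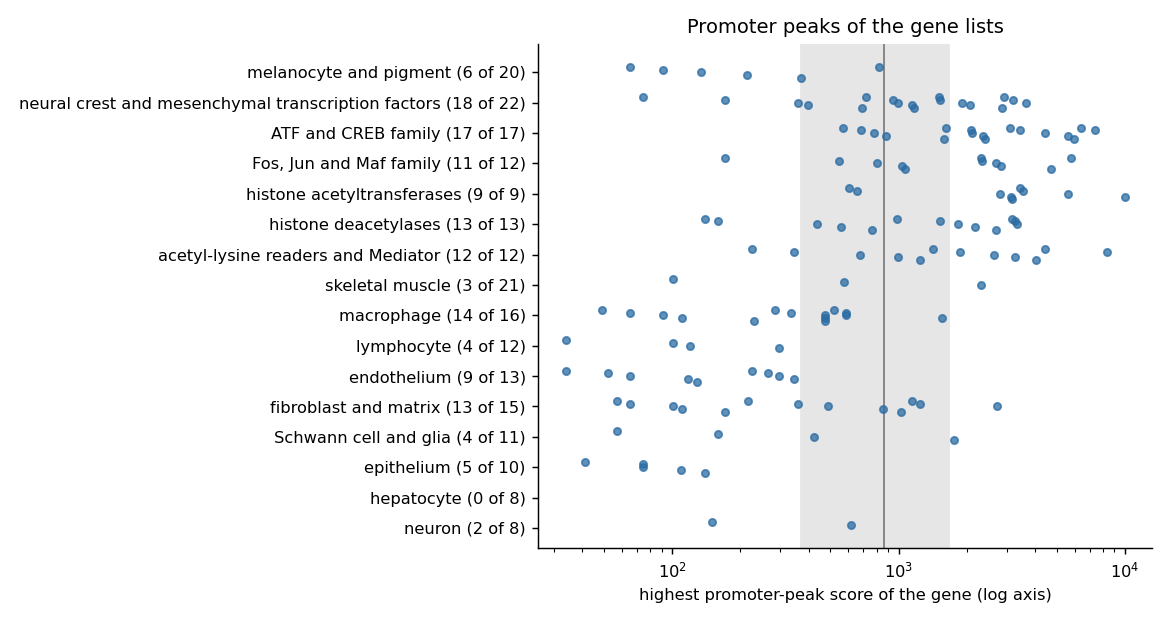
Highest promoter-peak score on a log axis of each listed gene with a promoter peak, with the number marked of the number listed. The grey band spans the quartiles (372 to 1675) and the line the median (863) over 12846 coding genes; ATF/CREB and acetyltransferase genes lie mostly to its right and endothelial genes (34 to 346) below the band.

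Peak density varied along and between chromosomes. Autosomes ranged from 8.11 peaks per Mb on chromosome 3 to 17.8 on chromosome 11, with chromosomes 19 (15.1) and 17 (14.9) next. Over the 19 autosomes, density ranked with coding genes per Mb (Spearman correlation 0.89, a description in which both measures share the chromosome's gene content). The distal density varied less, from 3.38 on chromosome 14 to 6.48 on chromosome 11.

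Chromosome X had 2.62 peaks per Mb (429 peaks), 4.31 times fewer than the autosomes together. The gap was 3.07 times for promoter peaks (2.17 per Mb) and 10.2 times for distal peaks (0.459 per Mb). Accordingly 82.5% (interval 78.6 to 85.8%) of X peaks were promoter peaks, against 58.7% on autosomes. A promoter peak marked 34.9% of 948 coding genes on X (interval 31.9 to 38.0%) and 60.1% of 20807 on autosomes, and the median score of promoter peaks was 334 against 490. The highest on X were Ddx3x (4142), an RNA helicase gene, Stag2 (3476), a cohesin gene, and Zfx (2890), chosen after their values were seen. No peak on X was wider than 4860 bp. Chromosome Y had 18 peaks. Masked repeats made up 46.75% of X and 96.29% of Y outside gaps, against 30.6 to 35.8% on autosomes. How well reads could be placed in repeats is unknown here, and its part in these densities was not tested. The sex of the mice was not given for these samples, and the RNAPOL2 and V5 lists held 349 and 65 peaks on X.

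**Figure D5:**
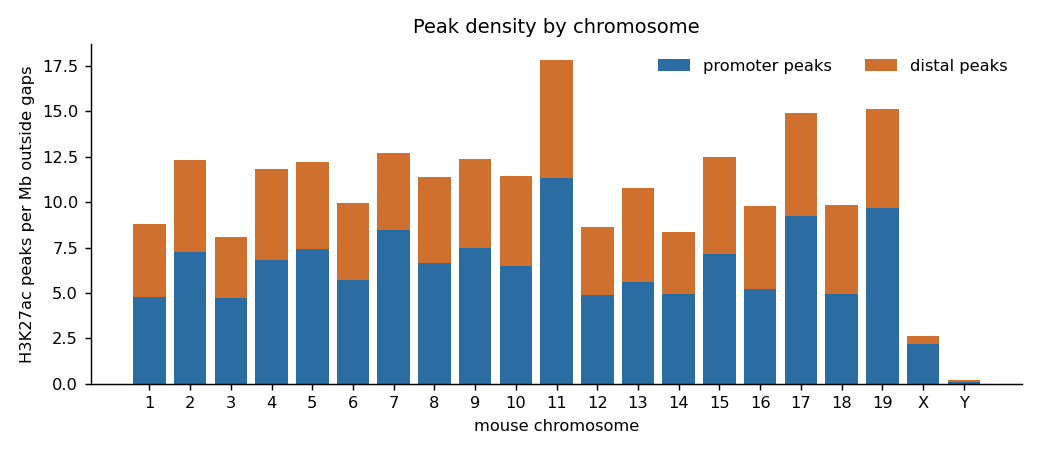
H3K27ac peaks per Mb outside assembly gaps on each mouse chromosome, stacked as promoter and distal peaks. Chromosome 11 is highest (17.8), and X has 2.62, of which 2.17 are promoter and 0.459 distal peaks.

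On a finer scale the peaks were clustered. The median gap between neighbours was 18460 bp while even spacing would give 96092 bp, and 9.59% of gaps were at most 1 kb. In 2660 windows of 1 Mb, the median was 6 peaks (quartiles 1 and 16), and 401 windows (15.1%) held 50% of all peaks. The densest was chr10:80000001-81000000 with 67 peaks, 9 of them distal, in a gene-rich stretch with Stk11, a tumor suppressor kinase gene, Tcf3, Dot1l and Gadd45b. The window chr11:117000001-118000000 also had 67, of which 30 were distal although it held only 16 coding genes, among them Sept9, Socs3 and Birc5. The others were chr11:115000001-116000000 (66, with Grb2 and Itgb4), chr2:32000001-33000000 (65, with Eng and Cdk9) and chr11:69000001-70000000 (65, with Trp53, Kdm6b and Polr2a).

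Windows without a peak numbered 614 (23.1%). They held 1456 coding genes, of which 490 were olfactory or vomeronasal receptors. The 4 longest stretches without a peak were on chromosome Y, where the longest was 36.5 Mb. Masked repeats made up 96.29% of Y, and how well reads could be placed there is unknown. A stretch of Y without a peak need not lack the mark. The next longest stretch, chr15:12965211-24303430, was the longest on an autosome (11.3 Mb). It held 6 coding gene starts, those of Acot10 and of the cadherin genes Cdh6, Cdh9, Cdh10, Cdh12 and Cdh18. Beyond the 5 longest, chosen for the genes in them, were a 9.03-Mb stretch of chromosome 14 with Slitrk1, Slitrk5 and Slitrk6, which encode synaptic adhesion proteins, and a 6.16-Mb stretch of chromosome 4 that held Tyrp1 and Ptprd.

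The other lists of the series were compared last. For V5 and RNAPOL2 the methods give other sample numbers than the labels, and which tumors stand behind each list is not stated. The median width was 1350 bp for H3K27ac, 960 bp for RNAPOL2 and 710 bp for V5, and the Spearman correlation between width and score was 0.68, 0.32 and 0.53. The share on a coding TSS was 54.4% for RNAPOL2 (interval 53.7 to 55.1%) and 25.5% for V5 (24.7 to 26.3%), with H3K27ac at 43.8% between them. Peaks of at least 5 kb made up 3.40% of the H3K27ac and 3.61% of the RNAPOL2 list, with overlapping intervals, and 0.159% of the V5 list. The broad setting of the peak caller was stated for H3K27ac alone, and its part in these widths was not tested.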

How the data were processed

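The authors immunoprecipitated chromatin of mCCS tumors with an antibody to H3K27ac and used input chromatin as background. According to the submitters' processing notes and published methods, alignment to mm10 used BWA-MEM (version 0.7.10-r789), duplicates were removed with Samtools rmdup, and peaks were called with MACS2 (version 2.2.6) with a p-value threshold and the broad option and filtered against the ENCODE denylist. The authors averaged replicates for their signal tracks, which were not used here, and whether replicates were pooled before peak calling is not stated. The deposited list gives a start, an end and a score per peak. The score is a whole number written by the authors of unstated scale, and it was read only against other scores of the same list. All peak ends lay on a 10-bp grid. The list holds no read counts, so the depth behind each peak is unknown here.

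Genes and 132629 TSS positions came from GENCODE vM21, the annotation of GRCm38, the assembly that mm10 names. Peaks were placed by overlap of at least 1 bp, with a promoter window of 3 kb on each side of any TSS, and genes were widened by 3 kb. Sequence was read from GRCm38.p6, where the search covered both strands. Promoter sequences came from RefSeq. No test was run, since 1 list gives no spread between tumors. Shares have 95% Wilson intervals, and medians have quartiles. The functions for overlap, distance, merging, motif search and intervals were tested on simulated data. Alternatives changed the promoter window, the TSS set, the peaks kept and the windows searched.

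The genes named were the 10 coding genes with the most peaks, the genes at the 10 widest and the 10 highest-scored peaks, up to 4 members of each list by promoter score, Rosa26, and the genes in the 5 densest windows and 5 longest stretches without a peak. Further genes are named where a sentence turns on them. The lists and members were chosen with earlier results of these data known, and the motifs other than TGACGTCA and TGAGTCA were added after the data were seen. Python 3.11.15, numpy 2.4.6, pandas 2.3.3, scipy 1.17.1 and matplotlib 3.10.9 were used.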

Additional observations from a re-analysis of the deposited data

How the results depend on the processing

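Over 10 results and their 47 alternatives, 1 value changed sign, 34 moved beyond the interval of the main value (for gene counts, by more than 1.5 times) and 12 did not. The median width of promoter minus distal peaks was 370 bp and became -590 bp in the upper 50% of peaks by score (the cause was not tested). It was 400 and 340 bp with windows of 1 and 5 kb, 310 bp by the middle base and 290 bp with peaks within 1 kb merged. In the same order, the promoter share was 51.8, 65.1, 56.4 and 61.1%, and the median score difference 501, 309, 413 and 435. With coding TSSs only these were 52.2% and 463.5, and in the upper 50% by score 80.9% and 526. The Spearman correlation of width and score was 0.30 in the upper 50%, 0.63 in promoter and 0.72 in distal peaks. The density of X over autosomes, 0.232, was 0.274 in the upper 50%, 0.326 for promoter peaks, 0.0982 for distal peaks and 0.347 per coding gene. Genes with at least 5 peaks fell from 868 to 130 in the upper 50%, which holds fewer peaks. The intragenic share of distal peaks was 54.9% over coding bodies, 62.7 and 58.8% with windows of 1 and 5 kb, and 55.0% in the upper 50%. The shares with TGACGTCA were 0.762% in the central 200 bp, 3.89% in whole peaks and 2.45% in the upper 50%, and those with TGAGTCA 5.07, 27.1 and 8.03%. Genes with a promoter peak ranged from 10984 to 13134. Counting only peaks on a TSS of the gene itself, chosen after seeing the data, moved the median score of the deacetylases from 1520 to 983, of the epithelial genes from 74 to 41 and of the muscle genes from 573 to 2305, where 1 gene of each of the latter lists was left. No paired analysis was possible because the samples of each antibody are represented by 1 list with no values per sample, which also left no replicate to leave out. The spread between tumors, the depth and the number of tumors behind each peak are unknown here.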
